A study of Mus musculus with 2 samples.

Results

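The genes of nuclear-encoded oxidative phosphorylation were taken from a table of DNase I hypersensitivity over coding genes as every gene outside the mitochondrial genome whose symbol starts with Nduf, Uqcr, Cox4 to Cox8 or Atp5, or is Sdha, Sdhb, Sdhc or Sdhd. This rule gave 91 of 22605 genes, each represented by the row of its longest listed span in windows. By symbol, 42 belonged to complex I, 4 to complex II, 8 to complex III, 19 to complex IV and 18 to complex V. M1 cells are a mouse line of myeloid leukemia with progenitor character that moves toward macrophages when interleukin-6 (IL-6) is added. DNase I digestion of nuclei, followed by sequencing of the small fragments released by a pair of cuts (DHS-seq), was performed on 1 library of untreated M1 cells (M1) and 1 library of M1 cells given IL-6 for 4 to 5 days (M1+IL-6). Both libraries came from the same cell line in the same medium, no genetic change is named for either, and with 1 library each the differences have no replicate check.

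Oxidative phosphorylation passes electrons from NADH and succinate to oxygen through complexes I to IV of the inner mitochondrial membrane and uses the proton gradient that results to make ATP in complex V. Complex II is also an enzyme of the citric acid cycle, and it is the only one of these complexes whose subunits are all encoded in the nucleus. The nuclear genes for the subunits lie scattered over the chromosomes, are used in nearly all cells, and mostly start in open, CpG-rich promoters. Factors long studied at such promoters include NRF1, GABP (an ETS factor), YY1 and SP1.

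The deposited value of a gene is a mean of signal over the 700-bp windows touched by its coding span, from start codon to stop codon. A level below is this mean, in scaled reads per window, where 1 read is worth 1.0 in M1 and 1.03816 in M1+IL-6 as in the table. Windows of different genes can be shared, and reads in a shared window cannot be assigned to either gene. In 26 of the 91 members the windows also hold the start of another annotated gene. Examples are Ik in Ndufa2, Kbtbd4 in Ndufs3 and Mrpl47 in Ndufb5. The share over all genes was not counted. Summed over 1 row per gene the table held 9327940 reads in M1 and 8704060 in M1+IL-6. Intervals are 95% Clopper-Pearson intervals of the ratio M1+IL-6 over M1 and cover counting error only, and no test between conditions or between gene groups was possible with 1 library per condition. The scaling decides directions in this comparison. Strong windows were lower in M1+IL-6 across the genome: of 4349 single windows that the table isolates on chromosomes 1 to 19 and X, 367 held at least 80 reads in M1, and all 367 were lower in M1+IL-6, with a median ratio of 0.225 and a middle range from 0.192 to 0.269. Of the 68 single windows that held at least 80 scaled reads in M1+IL-6, all 68 were lower there than in M1 too. A scaling that sets the median ratio of the 573 single windows with more than 21 reads in both libraries to 1 adds 1.80 to every log2 ratio below, and most directions then turn. How far IL-6, the digestion or the library sets this difference cannot be told apart. "Lower" and "higher" below refer to the table's own scale, and the comparison with the median gene does not depend on a common factor. Among cell markers, the 8 myeloid progenitor genes had a median M1 level of 20.6 (4.10 to 87.7), above the medians of the other cell marker lists. The median was 8.79 in 4 macrophage genes (2.75 to 129), 4.83 in 3 erythroid genes (2.0 to 51.6) and 8.71, 10.5 and 9.33 in 3 B cell, 3 T cell and 3 epithelial genes. The macrophage genes as a list thus stood close to the B cell genes. The highest values of the macrophage and erythroid lists were those of single genes, Cd68 and Klf1.

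In untreated M1 cells the oxidative phosphorylation genes had high DNase I signal. Their median level was 24.8 reads per window, against 7.75 for all genes, and 77 of 91 lay above the all-gene median. In M1, 59 lay above the 75 percentile of all genes and 2 below the 25 percentile. In M1+IL-6 their median was 11.4, against 8.14 for all genes, so the members stood closer to the other genes. The spread among members was narrower as well, with an upper-to-lower quartile ratio of 3.56 in M1 and 2.44 in M1+IL-6. The median log2 ratio of members was −1.01 and that of all genes 0.05. The difference from the all-gene median, −1.07, is the same under every common factor, whereas the sign of −1.01 turns to 0.79 under the single-window scaling, where all genes have a median of 1.86. On the table's scale 83 of 91 members (91.2%) had a log2 ratio below 0, against 44.2% of all genes.

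Of the 91 members, 89 had more than 21 reads in either library, and at least 2-fold lower in M1+IL-6 were 47 (52.8%) of them, against 13.4% of the 18472 genes with that many reads. None was at least 2-fold higher, against 1.71% of those genes. The interval of the ratio lay below 1 in 71 members and held 1 in the other 20, while it lay below 1 in 28.2% of all genes. It lay above 1 in 0 members and in 24.4% of all genes. Genes with high M1 signal were lower in general, as the plot of change against level shows. Of the 3261 genes with more than 21 reads per window in M1, a limit chosen after the values were seen, 60.9% were at least 2-fold lower and 0 higher. A choice by the M1 level, the denominator of the ratio, itself favors lower calls, so no count of members at that level is given. Under the single-window scaling 0 of 90 members with enough reads are at least 2-fold lower, against 0.0959% of genes, and 33 (36.7%) are at least 2-fold higher, against 84.2% of genes.

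**Figure D1:**
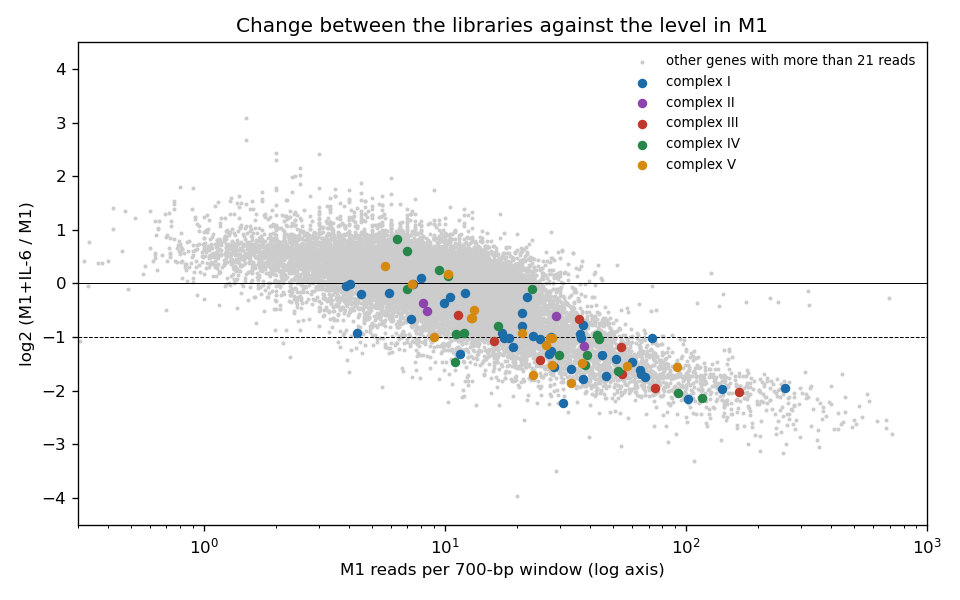
Each point is a gene with more than 21 reads in either library; the horizontal axis is its M1 level in reads per 700-bp window (log axis, 0.3 to 1000) and the vertical axis the log2 ratio of M1+IL-6 over M1 on the table's scale, with a dashed line at −1. Members of the 5 complexes are colored and lie along the slope of the grey cloud of other genes, with 47 of the 89 members plotted at or under −1; the single-window scaling would lift all points by 1.80.

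The table's mean and SD bound the strongest window of each gene, and this gives limits for the reads at single sites. In M1, 73 members (80.2%) had a window certain to hold more than 21 reads, against 35.3% of all genes. In M1+IL-6, 46 members (50.5%) had such a window, against 18.6%. The strongest window was certain to be lower in M1+IL-6 in 70 members (76.9%), against 27.2% of all genes, and certain to be higher in 5, against 15.8%. Certain here refers to the recorded reads only. It covers no counting error, and no read minimum was set. Of the 3579 genes certain to be higher, 3112 had 1 to 5 windows, as had all 5 members, and many genes of that length have few reads. Ndufa6, an accessory subunit of complex I, had 992 reads over 7 windows in M1, of which 727 to 846 lay in 1 window. In M1+IL-6 it had 244 reads, with 93 to 144 in the strongest window.

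By complex, the order of median levels in M1 was complex III, I, V, II and IV. Complex III had a median of 45.0 reads per window with a middle range from 22.6 to 59.3, and complex I 25.9 (11.7 to 43.0). Complex V followed with 22.1 (11.0 to 27.8), complex II with 18.7 (8.36 to 31.2) and complex IV with 16.6 (9.92 to 40.9). These ranges overlapped between all neighbors in the order, so the complexes were not separated by level. In M1+IL-6 the medians were 18.0 for complex III, 11.6 for II, 11.4 for IV, 11.3 for I and 9.51 for V. The median log2 ratio was −1.31 in complex III, −1.01 in complexes I and V, −0.94 in complex IV and −0.56 in complex II. At least 2-fold lower were 6 of 8 genes of complex III, 23 of 42 of complex I, 9 of 17 of complex V, 8 of 18 of complex IV and 1 of 4 of complex II, counted among genes with enough reads. This order depends on the genes kept, since with more than 50 reads required the median of complex IV was −1.33. Coding length differed between them, with a median of 28.5 windows in complex II and 4.0 in complex IV, and a site weighs less in the mean of a long span.

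**Figure D2:**
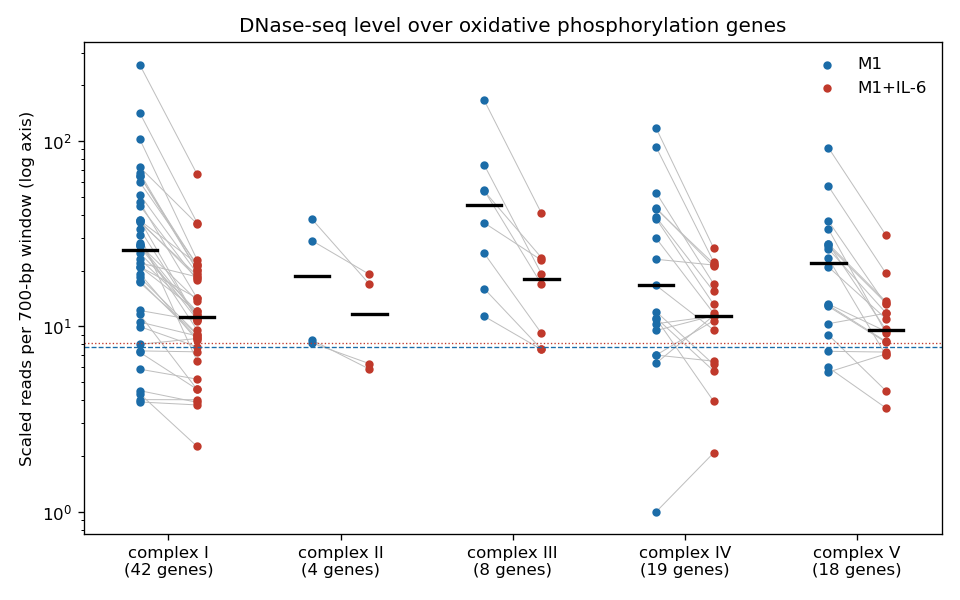
Each point is a gene of the named complex in M1 (blue) or M1+IL-6 (red), joined by a grey line, with the level in scaled reads per 700-bp window on a log axis. Black bars are medians (45.0 and 18.0 in complex III, 16.6 and 11.4 in complex IV), and the dashed and dotted lines are the all-gene medians of 7.75 in M1 and 8.14 in M1+IL-6.

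Complex I takes electrons from NADH. Its 7 core subunits, which carry the flavin and the iron-sulfur clusters, had a median of 27.0 reads per window in M1, and its 29 accessory subunits 27.5. The highest level of all 91 members was that of Ndufaf3, which encodes an assembly factor of complex I and not a subunit. Its span on chromosome 9 (108468290 to 108469258, NCBIM37) covers 3 windows, with 773 reads in M1 and 191 in M1+IL-6. This is a level of 257.7 and 66.1 and a ratio of 0.257 (0.218 to 0.301). Ndufa6 had levels of 141.7 and 36.2, and Ndufa2, another accessory subunit, 102.2 and 22.8. The largest difference was that of the accessory subunit Ndufb11 on chromosome X, with 124 reads in M1 and 25 in M1+IL-6 over 4 windows, a log2 ratio of −2.23. The windows of Ndufb11 also hold the start of Rbm10. Core subunits differed among themselves. Ndufv1, which binds NADH, had 539 and 155 reads over 8 windows, a ratio of 0.299 (0.248 to 0.358). Ndufs1, the largest core subunit, had 157 and 151 reads over 39 windows that do not hold its start, a ratio of 0.998 (0.793 to 1.26). Ndufs8 had 110 and 89 reads, a ratio of 0.840 (0.628 to 1.12), also without its start in the windows. The lowest M1 level of complex I was 3.91, of the accessory subunit Ndufs4 over 143 windows, with 559 and 519 reads.

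The only complex I gene with a log2 ratio above 0 was Ndufb8, with 112 and 116 reads and a ratio of 1.08 (0.822 to 1.41). The row the rule takes for it spans 14 windows and comes from a separate annotated gene of that name. The usual Ndufb8 transcript covers 8 windows with 168 reads in M1 and 108 in M1+IL-6, a ratio of 0.667 (0.519 to 0.855). Ndufa4 is counted here by its symbol, although its protein is now known as a part of complex IV, and had levels of 23.2 and 11.7.

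Complex II oxidizes succinate. Sdhd, a membrane anchor, had 379 reads in M1 and 163 in M1+IL-6 over 10 windows, a ratio of 0.446 (0.369 to 0.538). Sdhb, the iron-sulfur subunit, had 754 and 478 reads over 26 windows, a ratio of 0.658 (0.586 to 0.739). Sdha, the flavoprotein, had 329 and 221 reads over 39 windows, and the second anchor gene Sdhc 252 and 188 reads over 31 windows. All 4 intervals lay below 1, and only that of Sdhd lay apart from the other 3. Of the 4 spans, only that of Sdhc holds the start of the transcript.

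Complex III passes electrons to cytochrome c. All 8 of its genes taken by the symbol rule were above the all-gene median in M1. Uqcrq, a small subunit, had 665 reads in M1 and 157 in M1+IL-6 over 4 windows, levels of 166.2 and 40.7 and a ratio of 0.245 (0.205 to 0.292). Its windows also hold the start of Gdf9, a growth factor gene on the opposite strand. Uqcr10, another small subunit, had levels of 74.5 and 19.2, and Uqcrfs1, the Rieske iron-sulfur protein, 54.2 and 16.9. Uqcrc1 and Uqcrc2, the core proteins, had log2 ratios of −0.67 and −0.59 and were the 2 of these 8 genes under a 2-fold difference. Uqcrc2 had the lowest M1 level of the 8, 11.3.

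Complex IV reduces oxygen to water. Cox8a had 468 reads in M1 and 102 in M1+IL-6 over 4 windows, levels of 117 and 26.5 and a ratio of 0.226 (0.181 to 0.281). Cox5b had levels of 92.5 and 22.3, and Cox6a1 52.5 and 17.0. Cox4i1 had 184 and 165 reads, with a ratio of 0.931 (0.75 to 1.15). Its start lies outside its own windows, in those of the neighboring gene Cox4nb, which had 652 and 304 reads and a ratio of 0.484 (0.421 to 0.555). Cox4nb matches the rule by its symbol only and is no subunit of complex IV. The lowest level was that of Cox7b2, with 1 read in M1 and 2 in M1+IL-6 over its single window, which is under the limit of 3 reads that a count of 0 allows.

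Complex V makes ATP. Atp5d, the delta subunit, had 552 reads in M1 and 180 in M1+IL-6 over 6 windows, levels of 92.0 and 31.1. Atp5k and Atp5e, small subunits, followed with 57.0 and 37.0 in M1 and 19.4 and 13.2 in M1+IL-6. Atp5b, the catalytic beta subunit, had 306 and 102 reads, a ratio of 0.346 (0.274 to 0.434). The largest difference was that of Atp5l, with 402 and 107 reads and a log2 ratio of −1.85. The 3 genes for the same mature c-ring protein were not alike, though none of their spans holds the start. Atp5g2 had 195 and 92 reads and Atp5g3 93 and 27, with ratios of 0.490 (0.378 to 0.631) and 0.301 (0.189 to 0.467), while Atp5g1 had 31 and 34 and a ratio of 1.14 (0.679 to 1.92). Atp5j had the lowest level in M1, 5.67, and the highest log2 ratio of the complex, 0.32, from 34 and 41 reads, with an interval of the ratio that holds 1. The row taken for Atp5o, the stalk subunit OSCP, is a read-through span of 347 windows with 4575 and 3142 reads. Its known transcript covers 10 windows with 151 and 90 reads, a ratio of 0.619 (0.471 to 0.809). Atp5l-ps1 is a pseudogene with 12 and 7 reads.

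Levels were higher where the windows reach the start of the transcript. In 64 members the windows hold the own start, and their median M1 level was 28.0, against 12 in the 27 members without it, a difference of 16.04 reads per window. For all genes the medians were 8.0 and 7.5. Of the members, 25.3% have a protein-coding neighbor that starts within 1000 bp on the opposite strand, head to head, against 8.36% of all genes.

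In some genes, transcripts that end at different positions isolate the 5′ end of the span from its rest. Among the members, 21 spans could be split in this way, with the known transcripts of Atp5o and Ndufb8, a replacement made after the values were seen. The isolated stretches differ in extent: 17 of 21 hold the own start, 13 of these within at most 8 windows, while that of Uqcrc1 covers 19 of 20 windows and that of Atp5o 9 of 10. The 5′ stretch was lower in M1+IL-6, with an interval below 1, in 21 of 21 members, against 37.1% of 7996 split genes. The rest of the span had an interval below 1 in 5 of 21, against 14.0%, above 1 in 2, against 29.7%, and an interval that held 1 in 14. The median ratio was 0.275 for the 5′ stretches and 0.977 for the rests. The intervals of stretch and rest lay apart, with the 5′ stretch lower, in 14 of 21, against 26.3%. In the 13 members with the start within 8 windows, the 5′ interval was below 1 in 13, that of the rest in 4, and both lay apart in 10. With the rows the rule takes, 20 spans were split and 19 of 20 had a 5′ stretch with an interval below 1. The remaining one, Ndufb8, had 8 and 15 reads in its 5′ window, a ratio of 1.95 (0.775 to 5.30). Most 5′ stretches of members had much signal, with more than 21 reads per window in M1 in 19 of 21. Among the 1829 split genes with that much signal there, the 5′ interval was below 1 in 92.9%, that of the rest below 1 in 28.5% and above 1 in 10.9%, and both lay apart in 69.3%. The members' counts are thus near those of split genes with a strong 5′ stretch and are not read as particular to the members. That set takes the rows of the rule and is chosen by M1 reads, the denominator of the ratio, which itself favors lower calls. It therefore cannot show whether the members differ from genes of like signal. Under the single-window scaling the median ratio of the 5′ stretches is 0.960 and that of the rests 3.41, and 4 of 21 intervals of 5′ stretches stay below 1.

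In 5 members the 5′ stretch is exactly 1 window and holds the start. In Uqcrq this window, on chromosome 11 from 53244101 to 53244800, held 559 reads in M1 and 104 in M1+IL-6, a ratio of 0.193 (0.155 to 0.239). The other 3 windows held 106 and 53 reads. In Ndufs6, an accessory subunit of complex I, the window on chromosome 13 from 73465701 to 73466400 held 193 and 35 reads, a ratio of 0.188 (0.127 to 0.271). The other 12 windows of Ndufs6 held 130 and 116 reads, a ratio of 0.926. The site thus carried 59.8% of the reads of the gene in M1 and 23.2% in M1+IL-6. In Ndufs3, a core subunit, the window held 249 and 43 reads and the other 14 windows 175 and 95. In Ndufv2, another core subunit, it held 83 and 22 reads and the other 31 windows 149 and 119. Cox7c was the exception among all 21 members: its window held 83 and 32 reads, a ratio of 0.400 (0.258 to 0.609), and the other 2 windows 31 and 6, so the rest had the lower ratio. Ndufv1 had a 5′ stretch of 2 windows, with 478 and 93 reads and a ratio of 0.202 (0.160 to 0.253), while its other 6 windows held 61 and 62. In the accessory subunit Ndufb5 a 5′ stretch of 7 windows held 808 and 195 reads and the other 14 held 133 and 164.

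**Figure D3:**
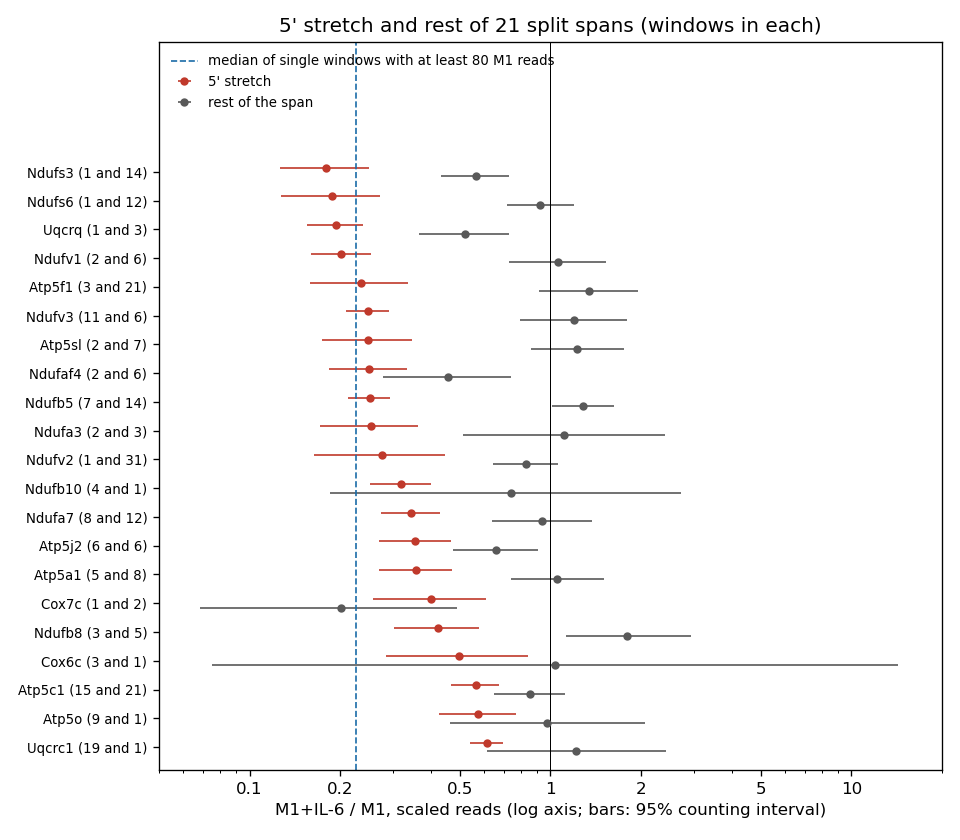
Each row is one of 21 members, with the number of windows of its 5′ stretch and of its rest in brackets; red points are the ratio of M1+IL-6 over M1 in the 5′ stretch and grey points that in the rest (log axis, bars are 95% counting intervals). Every red bar lies below 1, with points from 0.179 to 0.613, beside the dashed line at 0.225 that marks the median of single windows with at least 80 M1 reads, while grey points scatter about 1; the single-window scaling would move all points to the right by the same factor, to medians of 0.960 and 3.41.

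The sequences upstream of these starts show how the promoter ends differ in CpG content. The 200 bases before the annotated start are given 5′ to 3′ on the strand of the gene, read from NCBIM37, with each CpG in capitals. They were chosen for the isolated start windows of Uqcrq, Ndufs6, Ndufv2 and Cox7c and for the 5′ stretch of 2 windows of Ndufv1. The pair Cox8a and Cox8b was added, which had the largest difference in M1 level of the isoform pairs. Ndufs3, which also has an isolated start window, is not shown.
Uqcrq (chr11:53244330-53244529, minus strand): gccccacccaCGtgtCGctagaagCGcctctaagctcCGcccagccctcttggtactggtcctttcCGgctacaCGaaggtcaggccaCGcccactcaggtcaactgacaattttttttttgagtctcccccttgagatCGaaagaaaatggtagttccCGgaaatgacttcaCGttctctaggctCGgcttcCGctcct
Ndufv1 (chr19:4012807-4013006, minus strand): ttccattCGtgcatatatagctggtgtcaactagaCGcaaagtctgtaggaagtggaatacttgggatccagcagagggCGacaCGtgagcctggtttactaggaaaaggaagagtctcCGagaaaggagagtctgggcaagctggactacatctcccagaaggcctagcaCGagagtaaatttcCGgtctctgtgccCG
Ndufs6 (chr13:73465991-73466190, minus strand): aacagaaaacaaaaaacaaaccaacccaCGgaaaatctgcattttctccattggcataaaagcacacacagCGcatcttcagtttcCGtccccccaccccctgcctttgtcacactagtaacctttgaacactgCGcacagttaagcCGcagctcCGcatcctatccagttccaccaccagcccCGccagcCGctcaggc
Ndufv2 (chr17:66450900-66451099, minus strand): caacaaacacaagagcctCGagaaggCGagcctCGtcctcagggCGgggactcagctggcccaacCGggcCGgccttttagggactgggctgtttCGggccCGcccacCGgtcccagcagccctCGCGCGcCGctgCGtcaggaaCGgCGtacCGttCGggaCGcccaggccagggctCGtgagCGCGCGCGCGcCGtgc
Cox7c (chr13:86186510-86186709, minus strand): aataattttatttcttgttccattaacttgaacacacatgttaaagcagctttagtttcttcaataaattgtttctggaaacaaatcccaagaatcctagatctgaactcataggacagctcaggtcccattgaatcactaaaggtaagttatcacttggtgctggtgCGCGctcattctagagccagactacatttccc
Cox8a (chr19:7292107-7292306, minus strand): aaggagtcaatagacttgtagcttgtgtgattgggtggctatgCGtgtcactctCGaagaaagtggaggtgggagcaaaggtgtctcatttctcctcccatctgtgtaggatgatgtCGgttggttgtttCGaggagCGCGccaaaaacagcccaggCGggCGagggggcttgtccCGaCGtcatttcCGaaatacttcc
Cox8b (chr7:148086346-148086545, minus strand): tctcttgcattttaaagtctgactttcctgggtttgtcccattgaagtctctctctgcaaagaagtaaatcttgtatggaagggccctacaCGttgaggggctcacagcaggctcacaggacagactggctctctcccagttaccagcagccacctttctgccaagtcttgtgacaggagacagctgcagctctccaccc
The listed windows include all 200 bases in Uqcrq, Ndufv1, Ndufs6, Cox7c and Cox8a, 101 in Ndufv2 and 55 in Cox8b. Ndufv2 had 26 CpG in the 200 bases, Uqcrq 12, Ndufv1 and Ndufs6 8 each and Cox7c 2. Ndufv2 and Cox7c thus lay at the ends of this range and both had 83 reads in their start window in M1. Cox8a had 11 CpG and Cox8b 1.

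Over the 300 bases from 250 before to 50 after the start, the members' GC content was like that of all genes, with medians of 56.0% and 55.7%, but their CpG were less depleted. The ratio of observed to expected CpG had a median of 0.801 in members and 0.541 in all 22587 genes with a start, and was above 0.6 in 74.7% and 45.8%. Among genes of 1 to 20 windows with such a promoter, the median M1 level was 28.3 in 55 members and 16.5 in all 4201 genes, and 65.5% and 38.1% were at least 2-fold lower in M1+IL-6 on the table's scale. Ndufb8 is counted there with the promoter of its usual transcript but with the windows and reads of the row the rule takes. At a CpG ratio of 0.6 or less, the members' median M1 level was again above that of all genes of this length, 5.67. There 10 of 19 members with enough reads (52.6%) were at least 2-fold lower, against 12.3% of all genes. With either kind of promoter the members' share was thus above that of all genes, but so was their M1 level. Genes with high M1 signal were lower in general, and the groups were not matched by M1 level. Whether the members differ from genes of like promoter and like signal was not tested. Letters of known motifs were searched on both strands of the same 300 bases. The NRF1 letters GCATGCGC were in 12.1% of members and 3.29% of all genes, and the YY1 letters AAGATGGC in 11.0% and 3.4%. The ETS letters CCGGAAG, which GABP binds, were in 19.8% and 10.9%. The SP1 letters GGGCGG were in 46.2% and 44.0%, and the TATA box letters TATAAA in 9.89% and 13.5%. The NRF1, ETS and SP1 letters each hold a CpG, and the shares were not compared with genes of like CpG content. In the 200 bases shown, the only matches were SP1 letters, 164 bases before the start in Uqcrq and 159 and 100 bases before it in Ndufv2. Over the full 300 bases, Uqcrq and Cox8a also held the ETS letters and Cox8b the TATA box letters.

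Several subunits have an isoform that is restricted to heart and muscle, testis or other tissues. In M1 the restricted isoform had the lower level in 8 of 8 pairs, by 1.10-fold to 18.5-fold, and in M1+IL-6 in 5 of 8. Both Cox8b and Cox8c are paired with Cox8a. Cox8a had 117 reads per window in M1, while Cox8b, the muscle form, had 6.33 and Cox8c, the testis form, 7.0. In M1+IL-6 the levels of Cox8a, Cox8b and Cox8c were 26.5, 11.4 and 10.7. Cox8b had the highest log2 ratio of all members with more than 21 reads, 0.83, from 19 reads in M1 and 33 in M1+IL-6, but its interval of the ratio (0.996 to 3.36) holds 1. Cox7a2 and its muscle form Cox7a1 had 29.8 and 7.0 in M1, and Cox4i1 and its lung form Cox4i2 had 23.0 and 10.3. Cox7b had 11.0, and the read of Cox7b2 has been given above. Pairs with a small difference were Ndufa4 with Ndufa4l2 (23.2 and 21), Cox6b1 with the testis form Cox6b2 (11.1 and 9.5) and Cox6a1 with the muscle form Cox6a2 (52.5 and 43.0). In M1 these differences are within counting error. The 43 reads in the single window of Cox6a2, for example, have a 95% counting interval from 31.1 to 57.9. These 3 pairs were reversed in M1+IL-6, and the reversals of Ndufa4 and Cox6a1 are within counting error too. The median log2 ratio was 0.20 in the 8 restricted isoforms and −1.34 in their 7 partners. Among all genes it was 0.16 at an M1 level of 21 or less and −1.19 above 21. The contrast is thus near that between weak and strong genes. Of the restricted isoforms only Cox6a2 had an interval of the ratio below 1. The CpG ratio was above 0.6 in 0 of the 8 restricted isoforms and in 6 of the 7 partners.

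**Figure D4:**
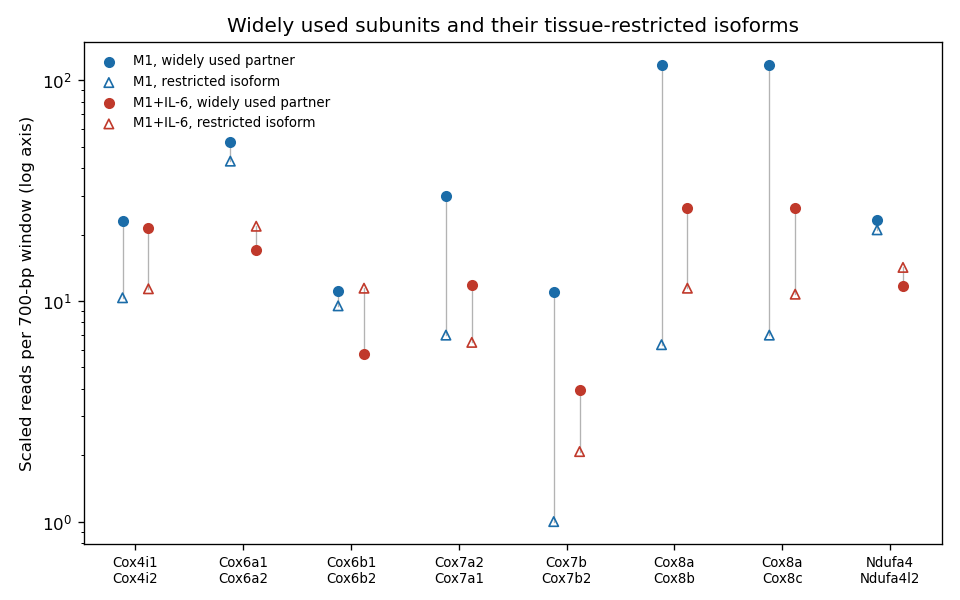
For each of 8 pairs, circles are the widely used partner (upper name) and open triangles the restricted isoform (lower name) in M1 (blue) and M1+IL-6 (red), with the level in scaled reads per 700-bp window on a log axis. The blue triangle is below the blue circle in 8 of 8 pairs and the red triangle below the red circle in 5 of 8. In M1 the gap is within counting error in the pairs of Ndufa4, Cox6b1 and Cox6a1.

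Other genes of respiration outside the symbol rule were read from lists. Of 24 listed assembly factors, 8 passed the 2-fold limit downward and 0 upward, beside the 13.4% and 1.71% of all genes, with a median log2 ratio of −0.75. The highest was Sdhaf1, an assembly factor of complex II, with levels of 202 in M1 and 50.9 in M1+IL-6 and a log2 ratio of −1.98, and the highest log2 ratio was 0.37, of the complex III factor Ttc19. Of 12 regulators of respiratory genes, 1 was at least 2-fold lower and 0 higher, with a median of −0.34, so the count is not above the 13.4% of all genes. That one was Tfam, which packages mitochondrial DNA and starts its transcription, with 496 and 152 reads and levels of 33.1 and 10.5. Nrf1 had 626 and 691 reads over 89 windows, a ratio of 1.15 (1.03 to 1.28), and Gabpa 156 and 159. Ppargc1a, a coactivator of these genes, had the largest log2 ratio, 0.35, with levels of 2.64 and 3.37. Of 5 other respiratory genes, Atpif1, the inhibitor of complex V, was at least 2-fold lower, with 238 and 75 reads. Cycs, which encodes cytochrome c, had 23 and 11 reads, a ratio of 0.497 (0.219 to 1.06). Cyc1, a complex III gene that the symbol rule misses, had 150 and 77 reads, a ratio of 0.533 (0.400 to 0.706).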

How the data were processed

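Nuclei of M1 cells with and without IL-6 were digested with DNase I, and small fragments were sequenced by the authors. Per the labels and the methods, reads were aligned to NCBIM37 (mm9) with BWA. The authors deposited a signal table, made with Seqmonk, with the mean and SD of signal over 700-bp windows for 55432 transcripts. The product of mean and number of windows was a whole number of reads in both libraries, within 0.003, so read numbers were recovered, and a count test was not possible with 1 library per condition. The number of windows matched the spans in 100% of rows, and 99.99% of the spans matched GENCODE M1.

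Before log2 ratios were taken, 0.5 reads were added in both libraries. A gene was counted as lower or higher at 2-fold if either library held more than 21 reads. Reads of stretches were found by subtracting spans that share boundaries (276 sums by more than one route, 0 disagreed), and bounds of the strongest window follow from mean and SD. These steps were tested on simulated windows. Starts and promoters were read from GENCODE M1 and NCBIM37. Genes were named by a rule of the highest, lowest, most raised and most lowered genes per complex, isoform pairs and all Sdh genes, and others were named after their values were seen. The members and lists were chosen with earlier results of these data known, and the stretches, bounds, promoter comparison and single-window scaling were added after the values were seen. Cox4nb and Atp5l-ps1 were put among non-subunits then too. Python 3.11.15, numpy 2.4.6, pandas 2.3.3, scipy 1.17.1 and matplotlib 3.10.9 were used.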

Additional observations from a re-analysis of the deposited data

How the results depend on the processing

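No paired analysis was possible because neither M1 nor M1+IL-6 has a second library, and no library could be left out. Over 10 results, 76 alternatives were run, of which 66 kept the direction and stayed within counting error of the value (counts within 1.5 times), 4 moved and 6 reversed. All reversals came from 1 scaling, added after the data were seen, which sets the median ratio of single windows with more than 21 reads in both libraries to 1. Under it the median log2 ratio was 0.79 for the members and 0.79, 1.24, 0.49, 0.86 and 0.79 for complexes I to V, while the members past 2-fold numbered 0 downward and 33 upward. The scaling planned over genes with more than 21 reads in both libraries moved log2 ratios by −0.01 only. Among the 66, the order of complexes changed: with more than 50 reads required, complex IV had a median of −1.33 against −1.31 in complex III, and with the row of fewest windows complex V had −0.74. With a fold of 1.5, 2 members were higher, Cox8b and Cox8c. With the row of fewest windows, the difference in M1 level between members with and without their start in the windows was 24.6 reads per window. Few reads limit the smallest spans, and a mean over windows does not show where in a span the reads lie.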

Other observations

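The 13 subunits encoded in the mitochondrial genome were listed at 0 reads in both libraries, over spans of 1 to 4 windows. Since all 13 were at 0, no ratio was formed for them.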
